A study of Mus musculus with 8 samples.

Results

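The genes described here are 10 members of the Notch pathway, taken by symbol from the 23343 symbols of the deposited tables. They are the receptors Notch1, Notch2, Notch3 and Notch4, the ligands Jag1, Jag2 and Dll4, the Notch-binding ubiquitin ligase Dtx1, and the target genes Hes1 and Hey1. Each symbol had a single transcript entry, and all 10 passed the filter on low counts that left 14907 genes for testing. RNA came from 4 groups of 2 libraries each: cKit+ spermatogonia of PRC1dKO mice (cKit dKO), cKit+ spermatogonia of PRC1ctrl mice (cKit control), Thy1+ spermatogonia of PRC1dKO mice (Thy1 dKO) and Thy1+ spermatogonia of PRC1ctrl mice (Thy1 control). All mice were C57BL/6 at postnatal day 7, and the cells came from testis. PRC1 is one of the Polycomb complexes, which hold developmental genes in a repressed state by modifying histones; its catalytic subunits place ubiquitin on histone H2A. The labels do not spell out the alleles, how any deletion was driven, or the control genotype. They also do not say whether the replicates of a group came from different animals, so the p-values may measure only technical spread.

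Notch receptors sit in the cell membrane and are activated by Jagged or Delta-like ligands on a neighbouring cell. Ligand binding lets ADAM proteases and gamma-secretase release the intracellular domain, which enters the nucleus, joins the DNA-binding protein RBPJ and a Mastermind coactivator, and switches on Hes and Hey repressor genes. In the mouse testis, Notch signalling is known between germ cells and Sertoli cells and in the somatic cells between the tubules, and receptors and ligands of the pathway are also typical of blood vessels. The comparisons ask how these genes differ between dKO and control spermatogonia in each population, and between the populations.

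Library totals ran from 6763908 to 10976869 counts. Ring1, which encodes a catalytic PRC1 subunit, lay at 4.07 to 11.99 CPM in cKit dKO and 4.50 to 5.23 CPM in cKit control, and at 2.59 to 5.17 CPM in Thy1 dKO and 2.70 to 3.15 CPM in Thy1 control (CPM, read counts scaled to library size with TMM factors). Rnf2, which encodes the other catalytic subunit, lay at 103 to 145.9 CPM over the 8 libraries. The mean level of Ring1 was not lower in dKO than in control in either population. A count over whole genes need not show the loss of part of a gene, so these levels do not check the genotype labels. Markers of Leydig, stromal and other testis cells had counts in all libraries, as given below. The sorting markers followed their labels, but their levels do not show that a library held only spermatogonia. Thy1 was at 0 to 1.28 CPM in cKit libraries and 12.8 to 26 CPM in Thy1 libraries, and Kit was at 937 to 1057 CPM in cKit libraries and 281 to 317 CPM in Thy1 libraries. The record numbers that the labels attach to the cKit libraries lie apart from those of the Thy1 libraries, and that of cKit control replicate 1 lies apart from the other cKit libraries. What these numbers stand for is not stated, and any difference in handling that they track cannot be told apart from population.

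In cKit spermatogonia, 6 of the 10 Notch genes passed the test between dKO and control (edgeR's quasi-likelihood test, Benjamini-Hochberg adjustment over all genes, threshold 0.05). Dtx1, Notch3, Jag1 and Notch2 rose in dKO, and Hey1 and Jag2 fell. The share of all tested genes that passed was 28.6%, with 13.2% higher and 15.4% lower, so changes were common in this comparison as a whole (4259 genes, and 2367 without cKit control replicate 1). The median log2 fold change was 0.25 over the members and 0.03 over all tested genes. The count of members called fell to 3 without cKit control replicate 1 (Hey1, Jag1 and Notch3), to 3 without cKit dKO replicate 1 (Dtx1, Hey1 and Notch3), and to 3 by limma on the deposited RPKM (Dtx1, Hey1 and Jag2). In bulk samples, fewer cells of a type and less RNA per cell cannot be told apart.

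In Thy1 spermatogonia, edgeR called 0 of the 10 members between dKO and control. DESeq2 and limma on RPKM also called 0, in fits that called 334 and 3 of all tested genes. Few genes passed by edgeR in this comparison, 0.624% of those tested (93 genes). Without 1 library that count was 2 (Thy1 dKO replicate 1), 3 (Thy1 dKO replicate 2), 6 (Thy1 control replicate 1), 12 (Thy1 control replicate 2), 385 (cKit dKO replicate 1) or 394 (cKit dKO replicate 2). At an unadjusted p under 0.05, 4 of the 10 members passed, all higher in dKO (Notch2, Jag1, Dtx1 and Hes1), against 13.8% of all tested genes in either direction and 7.57% higher. The median log2 fold change was 0.33 over the members and 0.03 over all tested genes. The count depends on the fit. With no filter on low counts Hes1 and Jag1 passed, in a fit that called 563 genes in all. With only the 4 Thy1 libraries in the fit Hes1, Jag1 and Notch2 passed, among 961 genes called. With a term for replicate number Jag1 passed, among 157 genes called.

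**Figure D1:**
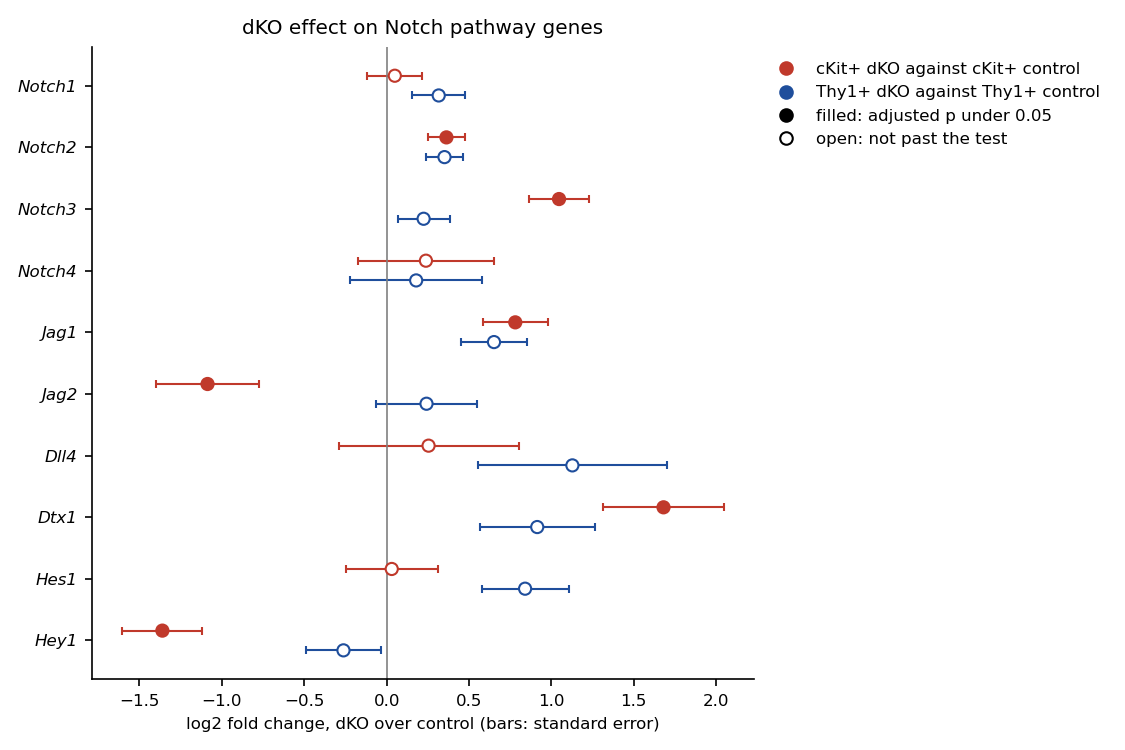
Log2 fold changes of dKO over control for the 10 Notch genes in cKit and Thy1 spermatogonia (x axis, log2 scale), with bars of 1 standard error and filled points where the adjusted p is under 0.05. In cKit, Dtx1, Notch3, Jag1 and Notch2 lie right of 0 and Hey1 and Jag2 left of it, while 9 of the 10 Thy1 points lie right of 0 and none is filled.

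Among the receptors, Notch2 and Notch3 rose in cKit dKO and Notch1 and Notch4 did not pass. Notch3, a receptor best known from vascular smooth muscle and pericytes, is encoded on the minus strand at chr17:32120893-32166852 (mm10). It had 23.4 and 26.7 CPM in the cKit dKO libraries, against 13.4 and 10.6 CPM in the cKit control libraries. Non-overlap of groups of 2 libraries, here and below, is a description only, and its share over all genes is not given. For Notch3 the cKit groups did not overlap, and the lower dKO library had more than either control. The log2 fold change was 1.05 ± 0.18 (SE; edgeR, adjusted p = 0.00068). In Thy1, Notch3 had 72.6 and 82.2 CPM in dKO, against 62.6 and 69.8 CPM in control, a log2 difference of 0.22 ± 0.16 that did not pass (edgeR, adjusted p = 0.57). Over the other 16 settings its change in cKit dKO ran from 0.62 to 1.24 and its adjusted p from 4.02e-06 to 0.053, the last by limma on RPKM. An antisense transcript, Gm17276, overlaps Notch3 in the annotation, and its reads could be among those of Notch3.

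Notch2 (plus strand, chr3:98013538-98150367), a receptor broadly expressed in somatic tissues, was the receptor with the most reads, 17574 over all libraries. Its levels were 314 and 271 CPM in cKit dKO and 229 and 226 CPM in cKit control, and 323 and 335 CPM in Thy1 dKO and 272 and 243.5 CPM in Thy1 control. In both populations each dKO library was above each control library. The log2 fold change was 0.36 ± 0.11 in cKit (edgeR, adjusted p = 0.025) and 0.35 ± 0.11 in Thy1, where it did not pass (edgeR, adjusted p = 0.16). The change in cKit was the least stable of the 6: it passed in 11 of 16 other settings, with adjusted p from 0.0032 to 0.96. It was lost without cKit control replicate 1 (0.37, adjusted p = 0.085), without cKit dKO replicate 1 (0.30, adjusted p = 0.085), with only the cKit libraries in the edgeR fit (0.36, adjusted p = 0.071), with library totals as the scale (0.22, adjusted p = 0.17) and on RPKM (0.01, adjusted p = 0.96).

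The scale matters for so small a change. In cKit dKO against control the median of all tested genes lay at 0.03 with TMM scaling, at −0.11 with library totals and at −0.29 on RPKM. Relative to the median of the same setting, Notch2 stood at 0.33 in both count scales and 0.30 on RPKM. The other called members kept their direction under every scaling run, and relative to the median Dtx1 stood at 1.65, 1.65 and 1.40, Notch3 at 1.01, 1.01 and 0.91, Jag1 at 0.75, 0.74 and 0.73, Jag2 at −1.12, −1.12 and −1.02 and Hey1 at −1.39, −1.39 and −1.33, each in the order TMM, library totals and RPKM.

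Notch1 (minus strand, chr2:26457902-26503822), a receptor with roles in blood, vessels and many progenitor cells, had 38.1 and 40.3 CPM in cKit dKO and 35.9 and 40.1 CPM in cKit control. These ranges overlap, and the log2 difference was 0.05 ± 0.17 (edgeR, adjusted p = 0.86). In Thy1 it had 57.6 and 76.6 CPM in dKO and 54.6 and 53.1 CPM in control (0.32 ± 0.16 by edgeR, adjusted p = 0.40). On the opposite strand, 0610009E02Rik and Gm13568 overlap Notch1 and the pseudogene Gm20462 overlaps Notch4, so reads could be shared there too. Notch4 (plus strand, chr17:34564295-34588543), a receptor mainly of endothelial cells, was low throughout, with 319 reads in all. It lay at 4.96 and 5.02 CPM in cKit dKO, 3.90 and 4.59 CPM in cKit control, 6.42 and 5.04 CPM in Thy1 dKO and 6.18 and 3.99 CPM in Thy1 control, and a difference could not be detected at this depth (standard errors of 0.41 and 0.40 on the log2 scale).

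**Figure D2:**
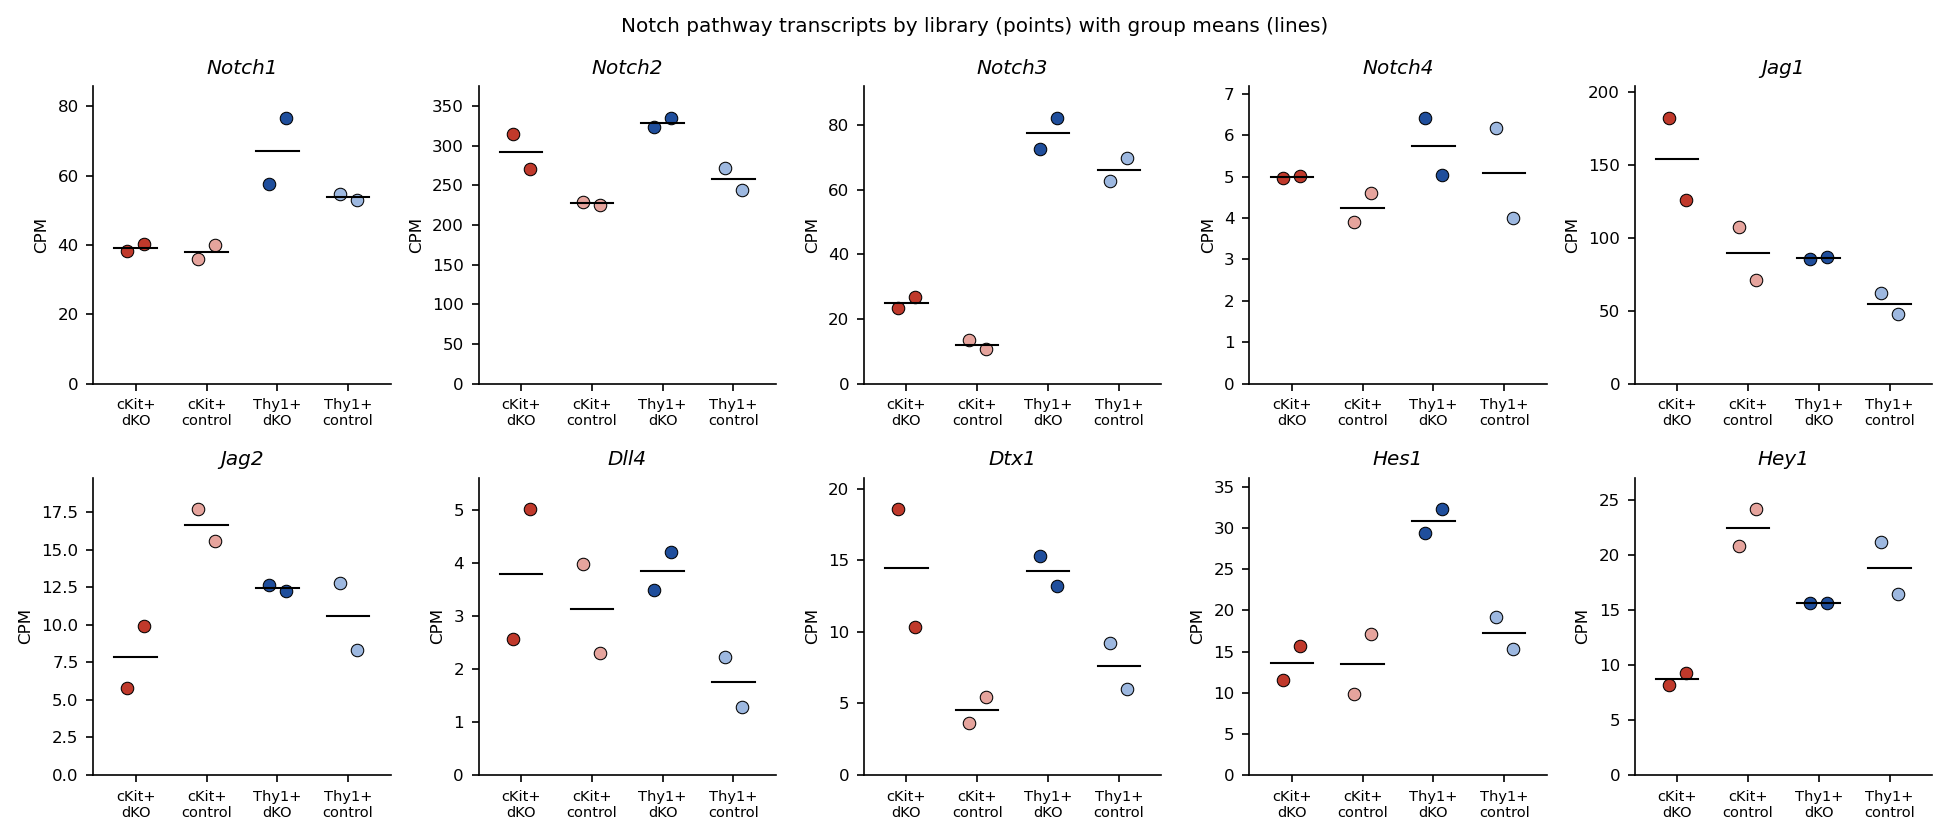
TMM-scaled CPM of each Notch gene by library (points), with group means (lines); the y axis of each panel starts at 0. Notch3 differs most between the populations, from 10.6 to 26.7 CPM in cKit and from 62.6 to 82.2 CPM in Thy1, and Hey1 is lowest in the 2 cKit dKO libraries.

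Compared per length, Notch2 was the most abundant receptor in every group. Its mean level was 7.36 ± 0.44 RPKM in cKit dKO, 7.29 ± 0.48 RPKM in cKit control, 8.80 ± 0.15 RPKM in Thy1 dKO and 7.03 ± 1.03 RPKM in Thy1 control (SD, n = 2 each; RPKM, as deposited by the authors, scales reads to transcript length and to the reads of the library). Of the summed RPKM of the 4 receptors, Notch2 took 79.5% and 75.5% in the cKit dKO libraries, 78.3% and 77.5% in cKit control, 65.5% and 62.4% in Thy1 dKO and 64.0% and 60.7% in Thy1 control. Every cKit library was above every Thy1 library, while dKO and control overlapped in cKit and in Thy1. Notch1 and Notch3 stood between 0.51 and 2.74 RPKM in the group means, and Notch4 was lowest at 0.20 to 0.24 RPKM.

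The Jagged ligands moved in opposite directions in cKit dKO. Jag1 (minus strand, chr2:137081451-137116520), a ligand known in the testis from germ cells and from vessels, had 182 and 126 CPM in cKit dKO, against 107 and 71.2 CPM in cKit control. The lower dKO library was above the higher control library, but the replicates of both groups were far apart. The log2 fold change was 0.78 ± 0.20 (edgeR, adjusted p = 0.0080). In Thy1, Jag1 had 85.1 and 86.6 CPM in dKO, against 61.8 and 47.7 CPM in control. That log2 difference of 0.65 ± 0.20 did not pass (edgeR, adjusted p = 0.15 and unadjusted p = 0.0058). By edgeR Jag1 passed with no filter (adjusted p = 0.0014), with only the Thy1 libraries in the fit (adjusted p = 0.0076) and with a term for replicate number. These fits called 563, 961 and 157 genes in all. The call in cKit was lost without cKit control replicate 2 (0.57, adjusted p = 0.060), without cKit dKO replicate 1 (0.54, adjusted p = 0.061) and on RPKM (0.44, adjusted p = 0.31). Over the 16 other edgeR, DESeq2 and limma settings its adjusted p ran from 1.03e-06 to 0.31.

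Jag2 (minus strand, chr12:112908590-112929495), the other Jagged ligand, had 5.76 and 9.88 CPM in cKit dKO, against 17.7 and 15.6 CPM in cKit control. Both dKO libraries were below both controls. The log2 fold change was −1.09 ± 0.31 (edgeR, adjusted p = 0.017). In Thy1 the groups overlapped, with 12.6 and 12.3 CPM in dKO and 12.8 and 8.33 CPM in control (0.24 ± 0.30; edgeR, adjusted p = 0.79). The call in cKit was lost without cKit control replicate 1 (−0.99, adjusted p = 0.11) and without cKit dKO replicate 1 (−0.70, adjusted p = 0.13); over the 16 other edgeR, DESeq2 and limma settings the adjusted p ran from 0.0036 to 0.13.

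The promoters of Jag1 and Jag2 are shown because the ligands moved in opposite directions and because Polycomb complexes are known to bind promoters rich in CG dinucleotides. Each is the 250 bases before the start of the gene on its own strand (RefSeq, GRCm38.p6), with every CG in capitals. Jag1 lies at chr2:137116521-137116770 and Jag2 at chr12:112929496-112929745, both on the minus strand.
Jag1: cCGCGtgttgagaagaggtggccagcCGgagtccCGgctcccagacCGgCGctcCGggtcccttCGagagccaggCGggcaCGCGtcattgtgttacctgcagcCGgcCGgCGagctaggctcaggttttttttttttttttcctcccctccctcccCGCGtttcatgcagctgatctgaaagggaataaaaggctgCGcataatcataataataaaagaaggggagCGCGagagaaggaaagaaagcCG
Jag2: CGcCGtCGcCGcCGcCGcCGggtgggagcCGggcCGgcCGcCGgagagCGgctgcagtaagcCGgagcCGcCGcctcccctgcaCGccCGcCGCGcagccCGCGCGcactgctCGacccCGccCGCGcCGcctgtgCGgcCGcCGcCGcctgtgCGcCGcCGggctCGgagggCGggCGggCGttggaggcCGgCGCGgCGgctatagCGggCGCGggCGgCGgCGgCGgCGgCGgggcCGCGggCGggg
The Jag2 promoter holds 54 CG dinucleotides and that of Jag1 holds 20. Over 32851 promoters of this length the median was 6, the quartiles were 2 and 16, and 92.1% held at least 1. Promoters with at least as many as Jag2 made up 0.0152% of all, and those with at least as many as Jag1 made up 17.9%. PRC1 binding was not measured in these data, and whether the CG number relates to the changes was not tested.

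Dll4 (plus strand, chr2:119325784-119335666), a Delta-like ligand of endothelial cells, was the least counted member, with 202 reads over the 8 libraries. It had 2.56 and 5.02 CPM in cKit dKO, 3.98 and 2.30 CPM in cKit control, 3.49 and 4.22 CPM in Thy1 dKO and 2.24 and 1.29 CPM in Thy1 control. The cKit groups overlapped and the Thy1 groups, at 11 to 31 reads a library, did not. The log2 difference was 0.25 ± 0.55 in cKit (edgeR, adjusted p = 0.77) and 1.13 ± 0.57 in Thy1 (edgeR, adjusted p = 0.40). An antisense transcript, Gm14207, overlaps its start and could share reads with it.

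Within a library, the balance between the Jagged ligands was widest in cKit dKO. The ratio of Jag1 to Jag2 in RPKM was 23.3 and 9.38 in cKit dKO, 4.48 and 3.38 in cKit control, 4.98 and 5.22 in Thy1 dKO and 3.58 and 4.22 in Thy1 control. Both dKO libraries were above both controls in each population, and the cKit dKO replicates differed from each other by more than the groups of Thy1 did. The ratio of Notch2 to Notch3 was 10.2 and 7.67 in cKit dKO, 12.9 and 16.1 in cKit control, 3.36 and 3.08 in Thy1 dKO and 3.29 and 2.64 in Thy1 control. These ratios were chosen after the values were seen and carry no test.

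**Figure D3:**
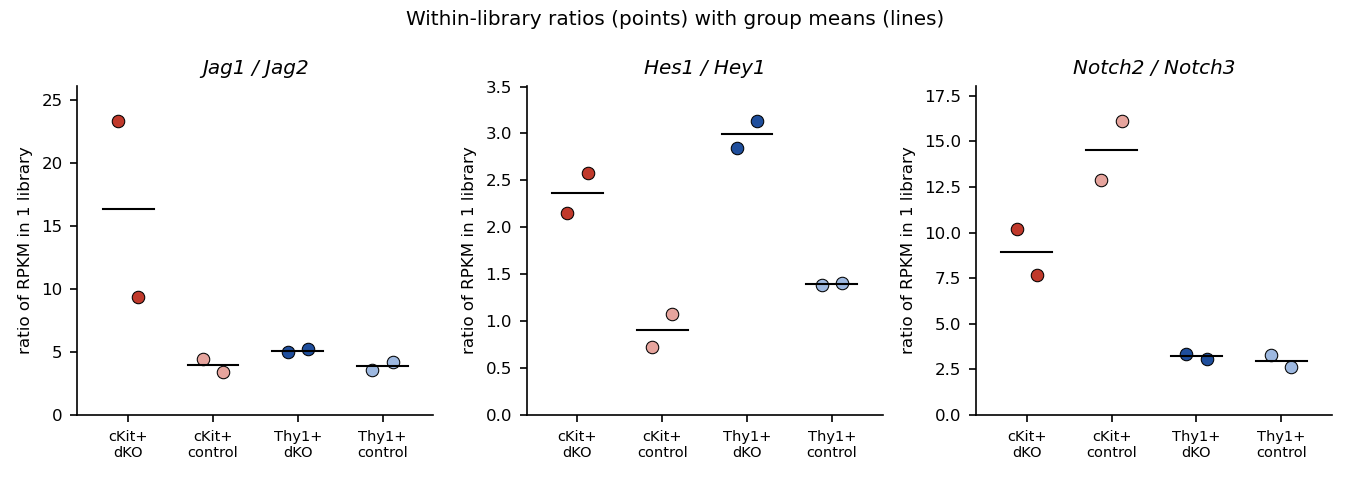
Ratios of RPKM between gene pairs in each library (points), with group means (lines), for Jag1 over Jag2, Hes1 over Hey1 and Notch2 over Notch3; the y axes start at 0. Jag1 over Jag2 reaches 23.3 and 9.38 in cKit dKO and stays at or below 5.22 elsewhere, and Hes1 over Hey1 is higher in dKO than in control in both populations. The pairs were chosen after the values were seen and carry no test.

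Dtx1 had the largest change of the 10 in cKit dKO in the count fits with each scaling; on RPKM that of Hey1 was larger (−1.62, against 1.11 for Dtx1). Dtx1 encodes Deltex 1, a ubiquitin ligase that binds the intracellular domain of Notch receptors and is itself a Notch target in lymphocytes. The gene (minus strand, chr5:120680264-120711669) had 18.6 and 10.4 CPM in cKit dKO, against 3.64 and 5.49 CPM in cKit control. The dKO libraries did not overlap the controls but stood far apart from each other. The log2 fold change was 1.68 ± 0.37 (edgeR, adjusted p = 0.0032). In Thy1 it had 15.3 and 13.2 CPM in dKO, against 9.21 and 5.99 CPM in control, also without overlap, and a log2 difference of 0.91 ± 0.35 that did not pass (edgeR, adjusted p = 0.25). The call in cKit was lost only without cKit control replicate 1 (1.40, adjusted p = 0.054) among 16 other edgeR, DESeq2 and limma settings, whose adjusted p went down to 1.8e-05.

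The Dtx1 promoter is shown as that of the member with the largest rise in counts. It lies at chr5:120711670-120711919 on the minus strand (RefSeq, GRCm38.p6), with every CG in capitals.
Dtx1: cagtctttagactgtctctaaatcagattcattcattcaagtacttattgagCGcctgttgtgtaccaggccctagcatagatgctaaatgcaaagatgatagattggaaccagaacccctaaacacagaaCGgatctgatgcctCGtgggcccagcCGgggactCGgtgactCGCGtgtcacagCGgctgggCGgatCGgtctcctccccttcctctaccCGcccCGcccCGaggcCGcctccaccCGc
It holds 15 CG dinucleotides, a number reached by 27.3% of all promoters of this length. Of the 8 members with a promoter in the RefSeq table, Notch2 had 34, Notch3 17, Notch1 16, Dll4 14 and Notch4 4. The sequence TGGGAA, the core bound by RBPJ, and the E-box CACGTG were each searched on both strands and found in 0 of the 8, against 21.6% and 6.02% of all promoters. The CG count was added after that search.

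The other Deltex genes also moved in cKit dKO: 3 of 4 rose and 1 fell, in a comparison where 28.6% of all tested genes passed (13.2% higher and 15.4% lower). Dtx4 had 904 and 716 CPM in cKit dKO, against 494 and 439.8 CPM in cKit control, and its log2 rise was 0.79 ± 0.12 (edgeR, adjusted p = 0.00021). Dtx3l rose by 0.90 ± 0.22 and Dtx3 by 0.81 ± 0.25, while Dtx2 fell by 0.77 ± 0.18, all as log2 values (by edgeR, adjusted p of 0.0061, 0.023 and 0.0056). Dtx4, Dtx3l and Dtx3 were not called by limma on RPKM, Dtx3l and Dtx2 were lost without cKit control replicate 1, Dtx3 without that library, without cKit dKO replicate 2 or with the largest entry per symbol, and Dtx2 without cKit dKO replicate 1. In Thy1 dKO edgeR called 0 of the 4, with Dtx4 and Dtx2 at an unadjusted p of 0.0081 and 0.031. DESeq2 and limma on RPKM also called 0, in fits that called 334 and 3 of all tested genes.

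The target genes differed. Hey1 (minus strand, chr3:8663359-8667038), a repressor and direct Notch target, fell in cKit dKO. It had 8.17 and 9.25 CPM in cKit dKO, against 20.8 and 24.1 CPM in cKit control. The replicates of each group were close and the groups stood well apart. The log2 fold change was −1.36 ± 0.24 (edgeR, adjusted p = 0.00078), and it was the only member that passed in all 16 other settings, at −1.62 to −1.20. In Thy1 the groups were closer, with 15.7 and 15.7 CPM in dKO and 21.2 and 16.4 CPM in control (−0.26 ± 0.23; edgeR, adjusted p = 0.67).

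Hes1 (plus strand, chr16:30065357-30067796), the other target among the members, had 11.5 and 15.7 CPM in cKit dKO and 9.87 and 17.1 CPM in cKit control. The ranges overlap, and the log2 difference was 0.03 ± 0.28 (edgeR, adjusted p = 0.95). In Thy1 it had 29.4 and 32.3 CPM in dKO, against 19.2 and 15.3 CPM in control. Those groups did not overlap, and the log2 difference was 0.84 ± 0.26 (edgeR, adjusted p = 0.15; unadjusted p = 0.0061). By edgeR Hes1 passed with no filter on low counts (adjusted p = 0.032) and with only the Thy1 libraries in the fit (adjusted p = 0.012). Those fits called 563 and 961 genes in all, and Hes1 passed in no other setting. The ratio of Hes1 to Hey1 in RPKM was 2.15 and 2.58 in cKit dKO, 0.722 and 1.08 in cKit control, 2.85 and 3.13 in Thy1 dKO and 1.38 and 1.41 in Thy1 control, so it was higher in both dKO libraries in each population. This ratio too was chosen after the values were seen and carries no test. In cKit the log2 fold change was −1.36 for Hey1 and 0.03 for Hes1, and in Thy1 neither gene passed.

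Of 5 other Hes, Hey and related targets tested in cKit, Heyl rose in dKO and the others did not pass. Of all tested genes 28.6% passed there, 13.2% of them higher and 15.4% lower as shares of all tested. Heyl, a Notch target of vascular smooth muscle, had 35.5 and 47.3 CPM in cKit dKO, against 23.5 and 26.3 CPM in cKit control (log2 fold change 0.74 ± 0.16; edgeR, adjusted p = 0.0038). It was lost on RPKM alone among the 16 other settings. Hes2, Hes3 and Hes7 did not pass the filter on low counts.

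The test of whether the dKO effect differed between the populations called 0 of the 10 members by edgeR, against 5.92% of all tested genes. At an unadjusted p under 0.05 it gave 3, against 20.7% of all genes. These were Notch3 (cKit minus Thy1, 0.82 ± 0.24; adjusted p = 0.059), Hey1 (−1.10 ± 0.33; adjusted p = 0.067) and Jag2 (−1.33 ± 0.44; adjusted p = 0.091). Over all genes the 883 called became 200 and 358 without Thy1 dKO replicate 1 or 2, 282 and 483 without Thy1 control replicate 1 or 2, and 358 without cKit control replicate 1. DESeq2 called Notch3 (adjusted p = 0.034), and limma on RPKM called 0 members and 0 of all tested genes. For the other members the edgeR differences ran from −0.87 ± 0.79 for Dll4 to 0.77 ± 0.50 for Dtx1. Beyond those settings, Notch3 and Jag2 passed with no filter, Notch3 with the other size factors and without cKit dKO replicate 1, Jag2 without cKit dKO replicate 2, and Hey1 with library totals.

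Between the populations, Notch3 was the member with the largest difference. In control mice it was lower in cKit than in Thy1 with a log2 ratio of −2.45 ± 0.18 (edgeR, adjusted p = 1.34e-07), and in dKO mice with one of −1.63 ± 0.17 (edgeR, adjusted p = 5.01e-06), and no cKit library reached any Thy1 library. In control, edgeR called 3 members, against 19.7% of all tested genes (9.46% higher and 10.3% lower in cKit): Notch3, Notch1 (−0.51 ± 0.16; adjusted p = 0.039) and Jag1, which was higher in cKit (0.71 ± 0.20; adjusted p = 0.021). In dKO it called 5, against 34.8% of all genes (14.8% higher and 20.0% lower in cKit). Besides Notch3 these were Hes1 (−1.18 ± 0.27; adjusted p = 0.0036), Notch1 (−0.77 ± 0.16; adjusted p = 0.0021) and Hey1 (−0.84 ± 0.25; adjusted p = 0.015), lower in cKit, and Jag1 (0.84 ± 0.20; adjusted p = 0.0040), higher in cKit. In control only Notch3 was left without cKit control replicate 1 or without Thy1 control replicate 2, and in dKO 3 members were left without Thy1 dKO replicate 2 (Hes1, Jag1 and Notch3). Over all genes, the 2939 called in control were 1722 and 1815 without Thy1 control replicate 1 or 2, and the 5190 called in dKO were 3109 and 3364 without Thy1 dKO replicate 1 or 2. Marker lists of testis cells, described below, also differed between cKit and Thy1. Pericyte and smooth muscle markers were lower in cKit in 11 of 11 in control (median log2 ratio −2.83) and 9 of 11 in dKO, with 0 higher. Peritubular and stromal markers were lower in 8 of 8 and 6 of 8, with 0 higher, and Leydig markers were higher in 8 of 8 in both. The part of these cell types in the Notch3 difference was not tested. The comparisons share libraries, so the member values of one are not independent of those of another.

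Ligands outside the members, such as Dlk1 (below), were left out of the next comparison. Of the 3 member ligands Jag1, Jag2 and Dll4, Jag1 had the highest length-scaled level in every group. Its share of the summed RPKM of the 3 ligands was 93.9% and 85.3% in cKit dKO, 78.0% and 74.2% in cKit control, 79.0% and 78.8% in Thy1 dKO and 74.6% and 78.1% in Thy1 control. The cKit dKO libraries had the highest shares, and Thy1 dKO lay just above the Thy1 controls. Group means of Jag1 were 7.38 ± 1.58 RPKM in cKit dKO, 5.51 ± 1.86 RPKM in cKit control, 4.39 ± 0.01 RPKM in Thy1 dKO and 2.86 ± 0.71 RPKM in Thy1 control (SD, n = 2 each). In cKit those means differ by about the spread between replicates. Of the target genes Hes1 and Hey1, Hes1 had the higher mean except in cKit control, with 2.50 ± 0.65 RPKM in cKit dKO, 3.10 ± 1.02 RPKM in cKit control, 5.97 ± 0.34 RPKM in Thy1 dKO and 3.41 ± 0.78 RPKM in Thy1 control. Hey1 had 1.05 ± 0.14 RPKM in cKit dKO, 3.42 ± 0.17 RPKM in cKit control, 1.996 ± 0.018 RPKM in Thy1 dKO and 2.45 ± 0.60 RPKM in Thy1 control.

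A list of 65 other pathway genes (ligands, glycosylation, proteolysis, trafficking, Deltex, nuclear complex and targets), of which 61 were tested, gave the setting. In cKit dKO 9 rose and 7 fell, against a background of 28.6% of all tested genes, and the median log2 fold change was −0.01 over the list and 0.03 over all genes. The nuclear complex had 2 of 21 higher and 5 lower, proteolytic processing 1 of 10 higher, trafficking 1 of 12 higher, glycosylation 1 of 5 lower and other ligands 1 of 4 higher. In Thy1 dKO edgeR, DESeq2 and limma each called 0 of the 61. Of all tested genes 0.624% passed by edgeR, 334 genes by DESeq2 and 3 by limma on RPKM. At an unadjusted p under 0.05 edgeR gave 4, against 13.8% of all genes. Between the populations (cKit over Thy1), 15 were higher and 5 lower in control, against 19.7% of all tested genes, and 15 higher and 13 lower in dKO, against 34.8%.

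Among the genes of that list that passed in cKit dKO, Maml2 and Dlk1 had the largest changes. Hes5 (−2.31 ± 1.19; edgeR, adjusted p = 0.16) and Dll3 (−1.52 ± 0.78; edgeR, adjusted p = 0.16) had larger values that did not pass, and are named here after their values were seen. Maml2, a Mastermind coactivator, had 39.7 and 45.0 CPM in cKit dKO, against 17.2 and 14.9 CPM in cKit control (log2 fold change 1.39 ± 0.18; edgeR, adjusted p = 6.29e-05). Dlk1, a membrane protein related to the Delta ligands and found in Leydig and stromal progenitors, had 199 and 197 CPM in cKit dKO, against 84.4 and 82.7 CPM in cKit control (1.25 ± 0.11; edgeR, adjusted p = 4.58e-06). Both groups of both genes were tight and far apart, and both genes passed in all 16 other settings. Maml3, another Mastermind gene, rose by 0.82 ± 0.21 and Aph1a, a gamma-secretase subunit, by 0.68 ± 0.22, and Hdac1, a histone deacetylase of corepressor complexes, fell by 0.70 ± 0.14, all as log2 values (by edgeR, adjusted p of 0.0080, 0.029 and 0.0019). Maml3 was lost on RPKM and without cKit control replicate 1, and Aph1a was lost in 6 of the 16 settings, among them those without cKit control replicate 1 and without cKit dKO replicate 2.

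**Figure D4:**
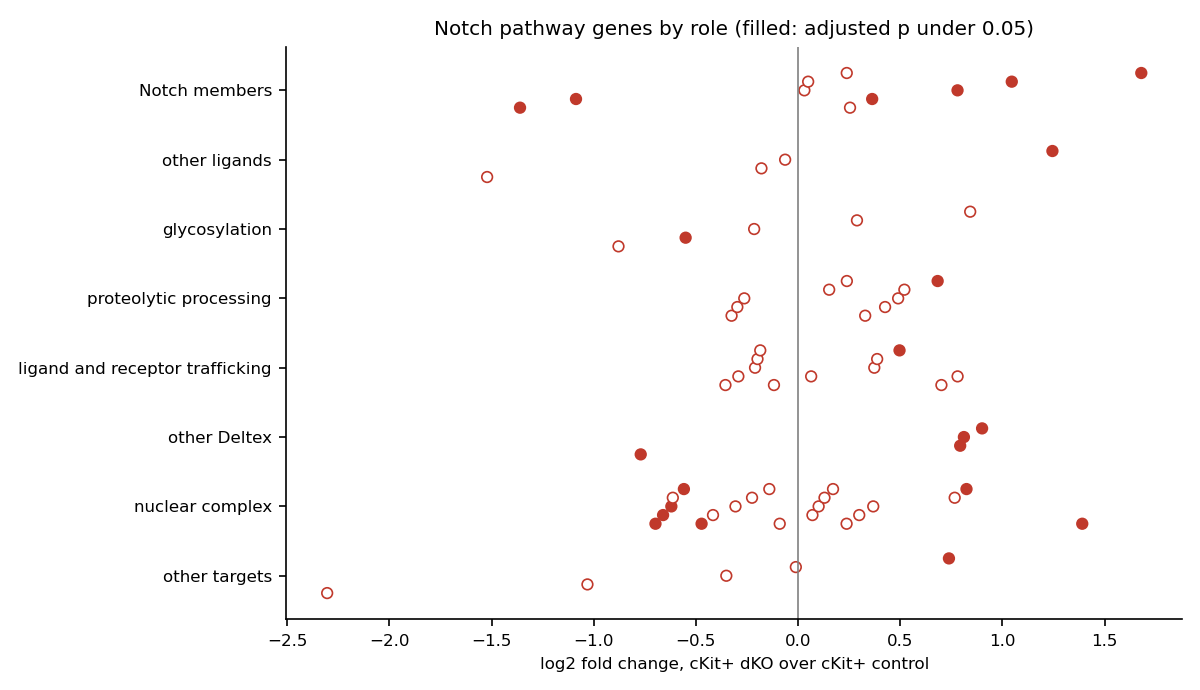
Log2 fold changes of cKit dKO over cKit control for the Notch members and the tested genes of the other Notch pathway lists, by role. The x axis is on the log2 scale, with 1 point a gene, filled where the adjusted p is under 0.05. Maml2 at 1.39 and Dlk1 at 1.25 are the largest called rises among the other lists.

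Markers of germ cells and of other testis cells moved in the same comparisons. The share of all tested genes that passed was 28.6% in cKit dKO (13.2% higher and 15.4% lower) and 0.624% in Thy1 dKO. In cKit dKO all 10 germ cell markers fell, and their summed level was 386 and 521 CPM in dKO, against 1592 and 1241 CPM in control. Of 10 undifferentiated spermatogonia markers 3 fell and 1 rose (summed 164 and 198 CPM in dKO, against 324 and 297 CPM in control), with a median log2 fold change over the list of 0.47, opposite in sign to the change of the sum. Of 7 differentiating spermatogonia markers 5 fell (1351 and 1299 CPM in dKO, against 1594 and 1438 CPM in control), with a median log2 fold change over the list of −1.63. Most of that sum was the sorting marker Kit, at 1057 and 1011 CPM in dKO and 1048 and 937 CPM in control. Germ cell markers were thus detected in both cKit groups.

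Somatic marker lists had counts in all libraries, and most of the markers that passed were higher in cKit dKO. Of all tested genes 13.2% were higher and 15.4% lower there. Endothelial markers, the list closest to Dll4 and Notch4, rose in 6 and fell in 1 of 12 tested (summed 485 and 504 CPM in dKO, against 260.5 and 276 CPM in control). Pericyte and smooth muscle markers, the list closest to Notch3 and Heyl, rose in 4 and fell in 1 of 11 (342 and 326 CPM in dKO, against 257 and 246 CPM in control). Peritubular and stromal markers rose in 7 of 8 (6157 and 4934 CPM in dKO, against 3166 and 3091 CPM in control), and Sertoli markers in 6 of 11 (1446 and 1477 CPM in dKO, against 965 and 1027 CPM in control). Leydig markers rose in 6 and fell in 1 of 8 (15850 and 18540 CPM in dKO, against 11340 and 13570 CPM in control), mast cell markers rose in 2 of 6 (286 and 239 CPM in dKO, against 119 and 195 CPM in control), and 0 of 6 macrophage markers passed (134 and 488 CPM in dKO, against 164 and 381 CPM in control). The part of these cell types in the changes of the Notch genes was not tested.

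In Thy1 dKO, where 0.624% of all tested genes passed, 3 of 10 undifferentiated spermatogonia markers fell and 0 rose (summed 482.5 and 462 CPM in dKO, against 666 and 720.4 CPM in control). Of the differentiating ones 0 of 7 passed (999 and 915 CPM in dKO, against 888 and 899 CPM in control), with a median log2 fold change of −0.23. Of the germ cell markers 1 of 10 fell (summed 1681 and 1524 CPM in dKO, against 1788 and 1983 CPM in control), of the endothelial ones 1 of 12 rose (580 and 590 CPM in dKO, against 403 and 401 CPM in control), of the Leydig ones 3 of 8 rose (3886 and 4350 CPM in dKO, against 2628 and 3271 CPM in control) and of the Sertoli ones 1 of 11 rose (585 and 633 CPM in dKO, against 468 and 472 CPM in control). Macrophage markers had 0 of 6 called (1160 and 1294 CPM in dKO, against 832 and 966 CPM in control), as did mast cell markers (28.2 and 25.7 CPM in dKO, against 18.1 and 37.6 CPM in control). Pericyte and smooth muscle markers had 1 of 11 lower (988 and 1056 CPM in dKO, against 1620 and 965 CPM in control), and peritubular and stromal markers had 0 of 8 called (11220 and 11670 CPM in dKO, against 12940 and 9944 CPM in control). Of all listed markers only Nanos3 (cKit dKO replicate 1), Sox17 (Thy1 control replicate 1) and Ms4a2 (Thy1 control replicate 1 and Thy1 dKO replicate 2) were at 0 counts in a library. The part of these cell types in the Thy1 values of the Notch genes was not tested.

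**Figure D5:**
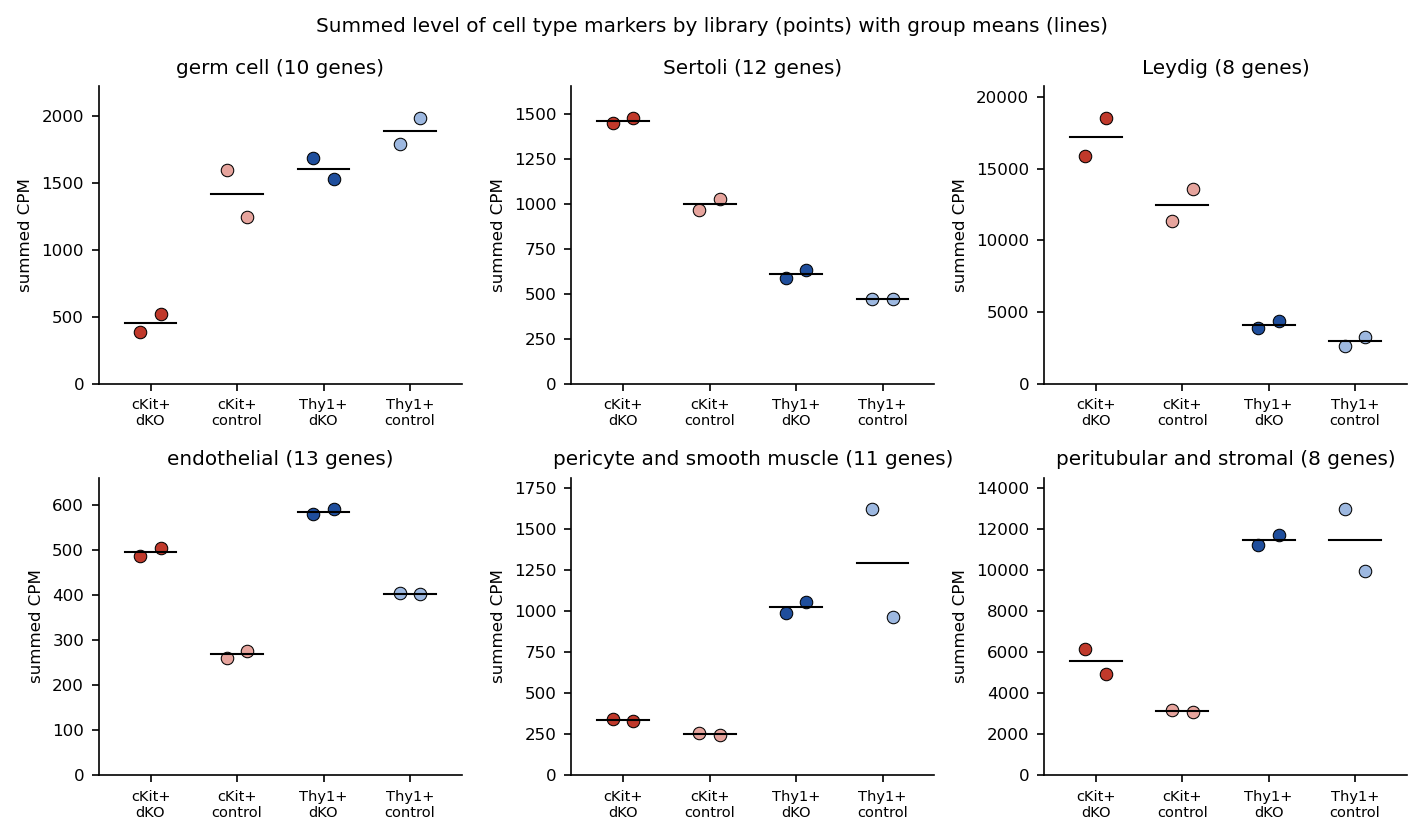
Summed TMM-scaled CPM of 6 marker lists by library (points), with group means (lines); the y axes start at 0. Germ cell markers are lowest in cKit dKO at 386 and 521 CPM, and Sertoli, Leydig, endothelial and peritubular markers are higher in cKit dKO than in cKit control.

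The genes whose levels ran most closely with those of each called member were found by Pearson's r of log2 CPM over the 8 libraries, among 10236 genes. The 8 points share the group structure and the scaling, so r is a description. For Notch3 these were Calcrl (0.996), AW551984 (0.995) and Rap2a (0.991), for Notch2 Tshz3 (0.986), Uprt (0.980) and Col23a1 (0.976), and for Dtx1 Atf7 (0.992), Sept11 (0.988) and Lamc3 (0.982). For Jag1 they were Mcu (0.982), Galk2 (0.980) and Nrip1 (0.978), for Jag2 Atp6v0a2 (0.984), Dhx16 (0.963) and Ubr2 (0.963), and for Hey1 Coil (0.985), Mcm7 (0.985) and Fam171b (0.981).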

How the data were processed

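The 8 samples were extracted with RNeasy micro columns, and cDNA was amplified by the NuGEN Ovation v2 system before Nextera XT library preparation and HiSeq 2500 sequencing, per the labels' protocols. The aligner was STAR 2.4.2a and the build mm10, per the submitters' processing notes; the counting tool and its strand setting are not given in the sources used here. The deposited tables hold raw counts for 26099 transcript entries and RPKM values made by the authors, per the file headers.

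Counts were summed per symbol and filtered with filterByExpr by group, which left 14907 genes. They were TMM-scaled and tested two-sided with glmQLFit and glmQLFTest of edgeR 4.0.16 in R 4.3.3, with 1 mean per group, all 8 libraries and 4 residual degrees of freedom. Adjustment was Benjamini-Hochberg over all tested genes, with a threshold of 0.05. The standard error of a log2 fold change is its size divided by the root of the F statistic, and SDs are over 2 libraries. The spread between replicates was wider in the cKit groups (chi-square over degrees of freedom of 9.83 in cKit dKO, 12.7 in cKit control, 4.27 in Thy1 dKO and 6.01 in Thy1 control), and the pooled fit does not model this. The pipeline was tested on simulated counts. Alternatives used DESeq2 1.42.0 and limma 3.58.1 on log2(RPKM + 0.1), among others.

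The 10 members were named in every comparison, and of the other pathway genes up to 10 called ones by size of change. For likeness, the 3 genes of highest r were named. The members, lists and rules were chosen with earlier results of these data known. Of the 10 members, 8 were matched in the RefSeq promoter table by symbol; Hes1 and Hey1 were not.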

Additional observations from a re-analysis of the deposited data

Results flagged for a closer look

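The effect of dKO differed between cKit and Thy1, by the test of the difference itself, for 3 of the 61 other pathway genes, against 5.92% of all tested genes (edgeR). For Dlk1 the difference (cKit minus Thy1) was 1.09 ± 0.15 on the log2 scale (edgeR, adjusted p = 0.0014). Its levels were 199 and 197 CPM in cKit dKO, 84.4 and 82.7 CPM in cKit control, 434 and 502 CPM in Thy1 dKO and 430 and 408 CPM in Thy1 control. For Maml2 the difference was 1.18 ± 0.25 (edgeR, adjusted p = 0.012), with 39.7 and 45.0 CPM in cKit dKO, 17.2 and 14.9 CPM in cKit control, 38.6 and 36.6 CPM in Thy1 dKO and 30.6 and 34.4 CPM in Thy1 control. For Kdm5a, a histone H3 lysine 4 demethylase that binds RBPJ, the difference was −0.71 ± 0.15 (edgeR, adjusted p = 0.012). It had 309 and 299.9 CPM in cKit dKO, 515 and 447 CPM in cKit control, 513 and 476 CPM in Thy1 dKO and 466 and 490 CPM in Thy1 control.

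By limma on RPKM the 3 did not pass (adjusted p = 0.12 for Dlk1, 0.14 for Maml2 and 0.083 for Kdm5a). That fit called 0 of all tested genes, so it says nothing particular about these 3. Maml2 was lost without Thy1 control replicate 2 (adjusted p = 0.057) and without either Thy1 dKO replicate (0.071 each). Kdm5a was lost without Thy1 control replicate 1 (0.070), Thy1 dKO replicate 1 (0.10) or cKit control replicate 1 (0.057).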

How the results depend on the processing

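No result changed direction past the threshold. Members called in Thy1 dKO numbered 0, but 2 with no filter on low counts, 1 with the replicate block (Jag1, adjusted p = 0.048) and 3 with only the libraries compared; leaving out 1 library gave 0 to 0. In cKit dKO the 6 became 3 on RPKM and 3 to 6 with 1 library left out. For cKit over Thy1, the 3 in control became 1 on RPKM, 1 with the largest entry per symbol and 1 to 3 with 1 library left out, and the 5 in dKO became 3 to 6. For the difference of effects the 0 became 1 with RLE factors, 1 with library totals, 2 with no filter, 1 with DESeq2 and 0 to 1 with 1 library left out. No pairing by replicate number was detected: deviations of same-numbered libraries correlated at −0.045 to 0.052, so the replicate block is an alternative only. These correlations cannot show whether same-numbered libraries came from the same animals. Over all genes, the 93 called in Thy1 dKO became 563 with no filter, 334 with DESeq2, 157 with the block, 961 with only the libraries compared, 3 on RPKM, 9 with the largest entry and 2 to 394 with 1 library left out. The 883 of the difference became 1490 with no filter, 0 on RPKM, 431 with the largest entry and 200 to 1239 with 1 library left out. With 1 library left out, the 4259 in cKit dKO became 2367 to 3972, the 2939 in control cKit over Thy1 became 1722 to 3557 and the 5190 in dKO cKit over Thy1 became 3109 to 5246. Calls split into 1965 higher and 2294 lower in cKit dKO, but 1278 and 3007 with library totals, 2281 and 2058 with RLE factors and 331 and 3401 on RPKM; in dKO cKit over Thy1 they split into 2202 and 2988, 1666 and 3797 with library totals, 2462 and 2255 with only the libraries compared and 2384 and 2259 without cKit dKO replicate 1; in control into 1410 and 1529, and 1654 and 783 on RPKM. Those of the difference split into 278 and 605, and 172 and 966 with library totals and 450 and 584 with DESeq2. The cause of these shifts was not tested. Depth limits Dll4 and Notch4 most, at 202 and 319 reads in all.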
